A study of Rattus norvegicus with 18 samples.

Results

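Ovarian follicles of rats given indomethacin were compared with follicles of rats given RU486, both collected at 22:00 of proestrus, before rupture. The comparison took 6 of the 18 samples of the series, 3 arrays of each drug, chosen by their labels alone and not by any measured value. All 6 came from cycling Crl:CD(SD) rats given 1 oral dose. The indomethacin group (IM PeF 1 to 3) received 4 mg/kg at 16:00 of proestrus and was collected 6 hours later. The RU486 group (RU PeF 1 to 3) received 100 mg/kg at 10:00 and was collected 12 hours later, so drug and hours since dosing cannot be told apart. Untreated follicles of the same time (control PeF) and unruptured follicles of both drugs at 10:00 of estrus (IM UF, RU UF) are cited where they place a value. Follicles were cut from 8 micrometre frozen sections by laser microdissection. The labels give 15 follicles per phase and 3 animals per group but tie no sample to an animal, so p-values reflect only how these samples spread, which may be partly technical. Samples hold whole follicle sections, in which fewer cells of a type and less RNA per cell cannot be told apart.

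Indomethacin blocks the cyclooxygenases, which turn arachidonic acid into the precursor of the prostaglandins. RU486 (mifepristone) occupies the progesterone receptor and the glucocorticoid receptor and blocks both. The surge of luteinizing hormone induces cyclooxygenase 2 and the progesterone receptor in granulosa cells, and follicles fail to rupture when either is lost. The comparison sets a drug aimed at prostaglandin synthesis against one aimed at progesterone and glucocorticoid signalling.

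The array with the least signal was IM PeF 2, which stood apart from the other 5. Its median deposited signal was 11.1, against 16.4 to 19.6 on the others. Of its probe sets 62% exceeded its background, close to the 63.2% of RU PeF 3, with up to 75.3% (IM PeF 3) on the others. Its correlation with IM PeF 1 was 0.929 and with IM PeF 3 0.946, while IM PeF 1 and 3 correlated at 0.970 and the RU PeF arrays at 0.964 to 0.969. Its 3′ to 5′ difference of Gapdh, a measure of RNA integrity, was 3.63 on the log2 scale against 2.59 to 2.95, while that of Actb was the lowest of the 6, at 4.46 against 4.76 to 5.24. Many of the results that rest on this array are therefore given with and without it. The part of array quality in them was not tested. Of the untreated arrays used to place values, control PeF 3 was the dimmest of the series (median 4.4, 45.7% above background) and correlated at 0.847 to 0.891 with the other arrays of 22:00.

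More genes were lower than higher in RU486 follicles. Of 18155 probe sets tested, limma called 949 (5.23%) at an adjusted p under 0.05, 359 (1.98%) higher and 590 (3.25%) lower in RU PeF. The values of the groups did not overlap for 936 of these, and for 24.5% of all probe sets tested. Taking 1 probe set per gene, 226 of 10391 genes (2.17%) were higher and 400 (3.85%) lower, for 6.02% in all, and the median difference over all genes was 0 on the log2 scale. All differences are RU PeF minus IM PeF of log2 signals with a standard error from limma, n = 3 per group. Of the calls, 202 had no single gene symbol and are counted only. The split between directions depended on the scaling: with arrays scaled to a common median, 530 were called, 249 higher and 281 lower, and with the signals as deposited 41 were called, 6 higher and 35 lower.

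**Figure D1:**
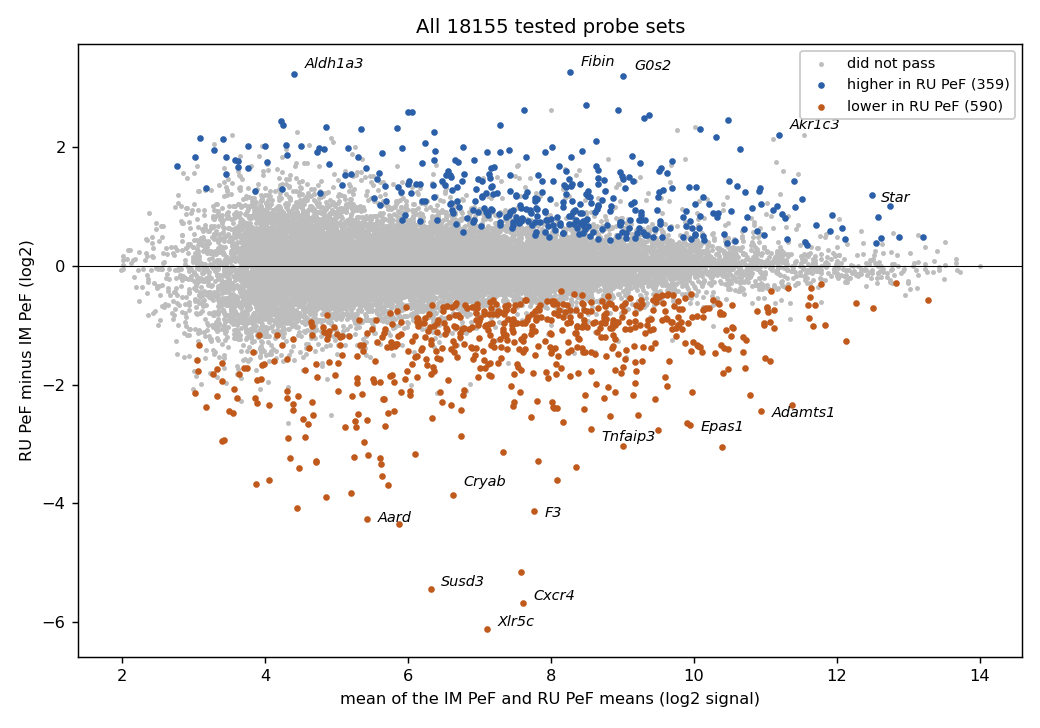
Difference between the drugs (RU PeF minus IM PeF, log2) against the mean level over both groups (log2) for each of 18155 probe sets. Coloured points passed an adjusted p of 0.05 in limma, 359 higher and 590 lower, and the lowest points include Xlr5c at -6.11 and Cxcr4 at -5.68.

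Single arrays moved these counts. Without IM PeF 2 the calls were 491, 128 higher and 363 lower, and 462 of the 949 calls remained. Without RU PeF 2 they were 486, without RU PeF 3 596, without IM PeF 3 607, without RU PeF 1 718 and without IM PeF 1 1166. IM PeF 2 was the lowest IM PeF array for 70.8% of the higher calls and the highest for 63.4% of the lower ones. The higher calls fell from 359 to between 122 (without RU PeF 2) and 220 when any array but IM PeF 1 was left out.

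**Figure D2:**
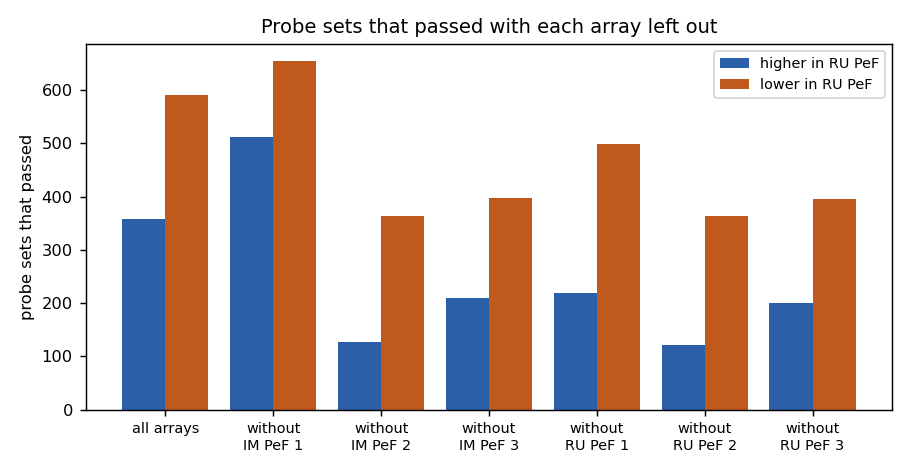
Number of probe sets called higher and lower in RU PeF, as 2 bars side by side, with all arrays and with each of the 6 arrays left out. The total runs from 486 without RU PeF 2 to 1166 without IM PeF 1, and lower calls outnumber higher ones in every pair of bars.

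The largest differences were genes that stood high in indomethacin follicles and low in RU486 follicles. Xlr5c, a gene of an X-linked family, measured 9.38, 11.11 and 9.99 in IM PeF 1 to 3 and 4.94, 4.25 and 2.94 in RU PeF 1 to 3. All 3 RU PeF values lay far below every IM PeF value and below the untreated follicles, which stood at 10.15, 9.63 and 9.21. The difference was -6.11 ± 0.53 (69.2-fold lower in RU PeF as fitted, adjusted p = 1.16e-06), and -5.65 without IM PeF 2. RU PeF 3 was not above background, so the size of the fold rests partly on background there.

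Cxcr4, the receptor for the chemokine Cxcl12, measured 10.03, 11.23 and 10.08 in IM PeF 1 to 3 and 4.85, 4.75 and 4.69 in RU PeF 1 to 3. The RU PeF values lay within a narrow band, and no array overlapped. The difference was -5.68 ± 0.35 (51.4-fold lower, adjusted p = 8.43e-08), with -5.3 without IM PeF 2 and untreated follicles at 10.57, 9.35 and 8.91. Its 3 probe sets ran from -5.68 to -4.35 and all passed. Its ligand Cxcl12 differed by -0.35 ± 0.22, adjusted p = 0.451, on the brighter of 2 probe sets, and the other, at -0.96, passed.

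F3, tissue factor and the starter of clotting, measured 9.88, 9.53 and 10.05 in IM PeF 1 to 3 and 6.31, 5.44 and 5.36 in RU PeF 1 to 3. The groups were separated by more than 3 log2 units, and untreated follicles (9.47, 9.86 and 9.05) lay with indomethacin. The difference was -4.12 ± 0.31 (17.4-fold lower, adjusted p = 3.33e-07). Susd3, a sushi domain protein, measured 7.89, 10.1 and 9.09 in IM PeF 1 to 3 and 4.65, 3.98 and 2.17 in RU PeF 1 to 3, a difference of -5.43 ± 0.66 (adjusted p = 5.72e-05). Aard, named for its alanine- and arginine-rich domain, measured 6.34, 9.07 and 7.26 in IM PeF 1 to 3 and 4.18, 3.78 and 1.93 in RU PeF 1 to 3, a difference of -4.26 ± 0.7 (adjusted p = 0.00111). In both genes IM PeF 2 was the highest array and RU PeF 3 the lowest and not above background, and the groups did not overlap.

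Cryab, a small heat shock protein, differed by -3.86 ± 0.37, adjusted p = 5.14e-06, and Atp4a, a subunit of the gastric proton pump, by -3.82 ± 0.41, adjusted p = 1.72e-05, with 1 of 3 RU PeF arrays of Atp4a not above background. C1qtnf1, a secreted C1q-like protein, differed by -3.6 ± 0.32, adjusted p = 1.7e-06 and Lyve1, a hyaluronan receptor of lymphatic vessels and some macrophages, by -3.54 ± 0.48, adjusted p = 0.000187. Gpt2, a mitochondrial alanine transaminase, differed by -3.39 ± 0.51, adjusted p = 0.000492. The second probe sets of C1qtnf1, Lyve1 and Gpt2 passed in the same direction, at -3.13, -3.28 and -2.86. Ppl, the desmosomal protein periplakin, measured 5.71, 5.87 and 5.56 in IM PeF and was not above background on any RU PeF array, so it was at least 5.15-fold lower (adjusted p = 0.00393). Dcxr, a xylulose reductase, was likewise at background in RU PeF and at least 7.09-fold lower (adjusted p = 0.00457). These bounds set the mean of the measured group against the background of the other group's arrays. All 12 of the largest lower genes still passed with each array left out in turn.

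The largest higher differences were smaller in size, and fewer of them passed with an array left out. Fibin, a secreted protein first described in fin bud, measured 7.2, 6.15 and 6.53 in IM PeF 1 to 3 and 9.8, 9.89 and 9.98 in RU PeF 1 to 3. Every RU PeF value exceeded every IM PeF value by more than 2 log2 units, and the RU PeF arrays lay close together. The difference was 3.26 ± 0.25 (9.6-fold higher, adjusted p = 3.33e-07), and its second probe set gave 2.71. G0s2, an inhibitor of the lipase that breaks down stored triglyceride, measured 7.99, 6.79 and 7.48 in IM PeF 1 to 3 and 9.59, 11.16 and 11.07 in RU PeF 1 to 3, a difference of 3.19 ± 0.45 (9.11-fold, adjusted p = 0.000268). Adra1b, an alpha-1 adrenergic receptor, differed by 2.58 ± 0.47, adjusted p = 0.00225. These were the 3 of the 12 largest higher genes that passed without IM PeF 2, and they also passed with each other array left out.

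The other 9 lost the call without IM PeF 2. Aldh1a3, a retinaldehyde dehydrogenase, measured 4.07, 2.35 and 1.99 in IM PeF 1 to 3 and 5.95, 6.11 and 6.0 in RU PeF 1 to 3, a difference of 3.22 ± 0.8, adjusted p = 0.0224, and 3.01 without IM PeF 2 (adjusted p = 0.101). It was above background on 1 of 3 IM PeF arrays. The others were Inhba, Pgr, Igsf8 (2.44 ± 0.59), Akr1c19 (2.33 ± 0.51), C9h6orf141 (2.31 ± 0.54), Rgs2 (2.30 ± 0.52), Neu2 (2.3 ± 0.61) and Ttyh1 (2.25 ± 0.48). Without IM PeF 2 the differences of these 8 ran from 1.68 to 2.19, and the adjusted p from 0.0571 for Akr1c19 to 0.293 for Pgr, and each of the 9 also lost the call without at least 1 RU PeF array. The probe sets of Ttyh1 disagreed, with 1 of 4 called and the others at 0.65 to 1.67.

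Of prostaglandin synthesis and breakdown, 13 members were tested and 1 was lower in RU PeF, with a list median of -0.10 against 0 over all genes. The share of lower calls over all genes was 3.85%. Ptges, the inducible synthase that makes prostaglandin E2 from the cyclooxygenase product, measured 5.15, 6.38 and 4.16 in IM PeF and 3.2, 2.97 and 2.49 in RU PeF, where no array was above background. It was at least 3.68-fold lower (adjusted p = 0.00327), and its second probe set differed by -0.12 ± 0.55. Ptgs2, the cyclooxygenase that the surge induces and indomethacin blocks, measured 12.1, 8.13 and 11.82 in IM PeF 1 to 3 and 12.63, 12.48 and 11.61 in RU PeF 1 to 3. Among the arrays of the 2 drugs IM PeF 2 alone was low and the other 5 arrays overlapped. Untreated follicles also spread, at 9.92, 12.27 and 12.87 in control PeF 1 to 3. The difference of 1.55 ± 0.83 did not pass (adjusted p = 0.363), and it was 0.28 without IM PeF 2. Ptgs1, the constitutive cyclooxygenase, differed by -0.51 ± 0.54 (adjusted p = 0.711) and Hpgd, which inactivates prostaglandins, by 0.59 ± 0.31 (0.351). Of the prostanoid receptors, 1 was bright enough to test: Ptger3, a receptor for prostaglandin E2, differed by -1.55 ± 0.57, adjusted p = 0.148, and 6 others lay below the filter.

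The receptors that RU486 occupies were not lower in RU PeF. Pgr, the progesterone receptor, measured 7.64, 4.56 and 6.77 in IM PeF 1 to 3 and 9.38, 8.96 and 8.45 in RU PeF 1 to 3, with 5.73, 6.79 and 9.02 in untreated follicles. Every RU PeF array exceeded every IM PeF array, by 2.61 ± 0.74 (adjusted p = 0.0473), and the call was lost without IM PeF 2, IM PeF 3, RU PeF 1, RU PeF 2 or RU PeF 3 (differences of 1.73 to 3.26 and adjusted p of at most 0.293 over the 6 left-out fits). Without IM PeF 2 the difference was 1.73 (adjusted p = 0.293). Nr3c1, the glucocorticoid receptor, differed by 0.39 ± 0.22, adjusted p = 0.395. Of 4 steroid hormone receptors tested, Pgr alone passed (25%, against 2.17% of all genes higher), and the list median was 0.39. The membrane components Pgrmc1 and Pgrmc2 differed by -0.31 ± 0.12 and 0.39 ± 0.17 and did not pass.

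Reported targets of the progesterone receptor in follicles were lower in RU PeF where they passed. Of 13 tested, 6 were lower (46.2%, against 3.85% of all genes) and 0 higher, with a median of -0.32. Over left-out arrays the count was 5 or 6, and with the signals as deposited it was 2. The lists were chosen with earlier results of these data known, so this share and those of the other lists only describe their members. Cxcr4 and F3 led, and both are described above.

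Adamts1, the protease that cleaves versican in the matrix around the oocyte, measured 12.02, 12.47 and 12 in IM PeF 1 to 3 and 10.64, 9.38 and 9.1 in RU PeF 1 to 3, beside 12.16, 11.94 and 12.09 in untreated follicles. All RU PeF values were below every IM PeF and untreated value. The difference was -2.45 ± 0.27 (5.47-fold lower, adjusted p = 2.34e-05). Epas1, the hypoxia-inducible factor 2 alpha, measured 10.74, 11.84 and 11.28 in IM PeF 1 to 3 and 9.03, 8.58 and 8.2 in RU PeF 1 to 3, a difference of -2.68 ± 0.32 (adjusted p = 5.71e-05), while its second, dimmer probe set gave -0.34 (adjusted p = 0.829). Pparg, a lipid-sensing nuclear receptor, measured 7.11, 7.24 and 7.42 in IM PeF 1 to 3 and 5.49, 5.3 and 5.63 in RU PeF 1 to 3 without overlap, a difference of -1.78 ± 0.32 (adjusted p = 0.00218).

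Snap25, a vesicle fusion protein, measured 10.84, 10.88 and 10.16 in IM PeF 1 to 3 and 9.31, 9.71 and 9.01 in RU PeF 1 to 3, a difference of -1.28 ± 0.33 (adjusted p = 0.0268). It was called with all arrays and lost without IM PeF 1, IM PeF 2, RU PeF 1 or RU PeF 3 (differences of -1.52 to -1.12 and adjusted p of at most 0.133 over the 6 left-out fits). Edn2, an endothelin that contracts the follicle wall, went the other way. It measured 4.97, 5.56 and 4.47 in IM PeF 1 to 3 and 6.57, 7.47 and 6.01 in RU PeF 1 to 3, so that every RU PeF array was above every IM PeF array. The difference of 1.68 ± 0.49 narrowly missed the threshold (adjusted p = 0.0522), and passed with median scaling (adjusted p = 0.0246) and without RU PeF 3 (adjusted p = 0.0466). With single arrays left out it ran from 1.29 to 2.02. Il6, Hif1a, Arnt, Adcyap1, Ctsl and Cited2 did not pass, with differences from -0.32 ± 0.23 for Cited2 to 1.13 ± 0.83 for Il6.

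**Figure D3:**
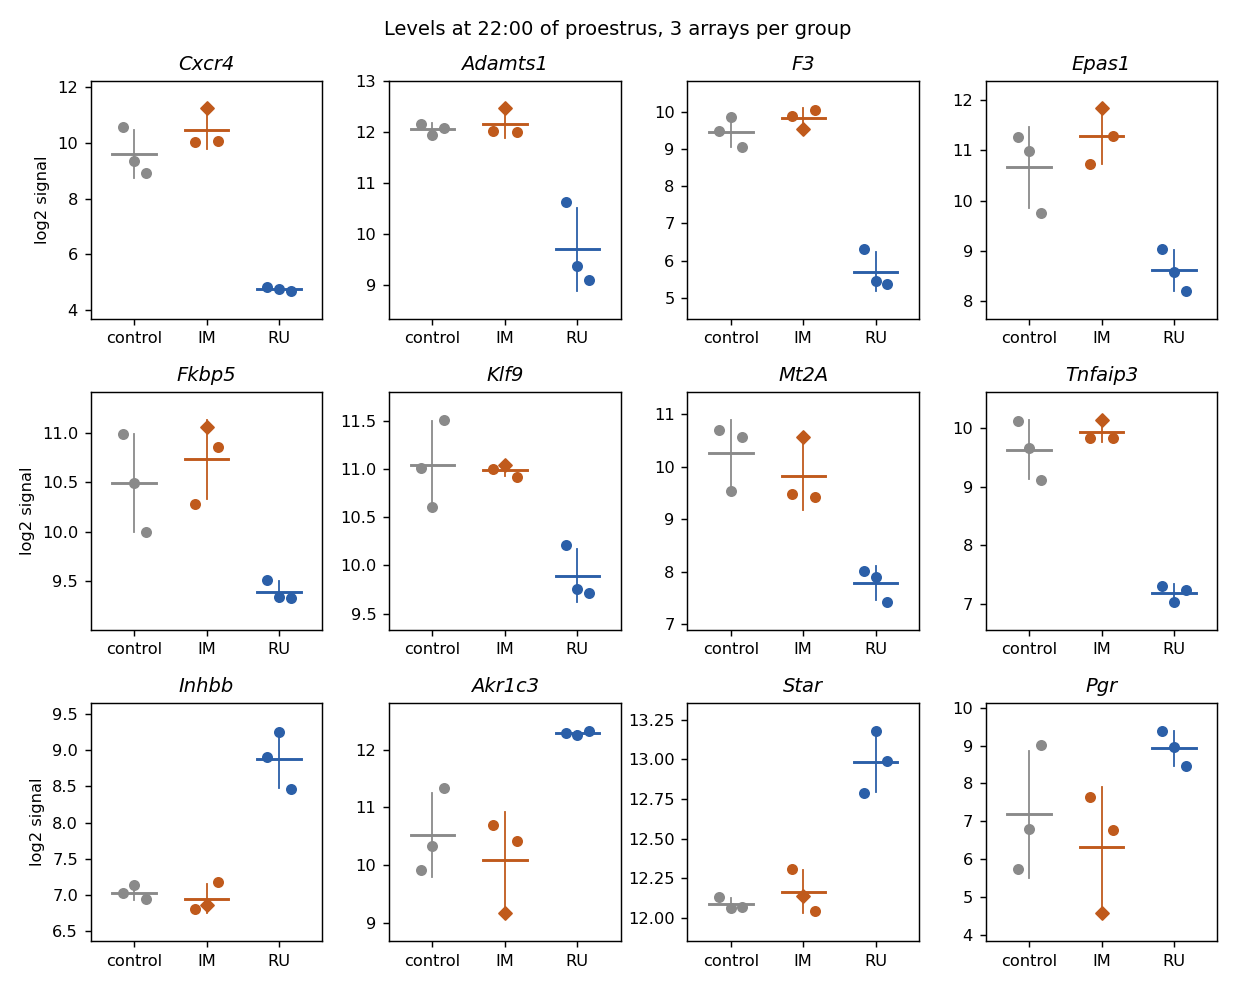
Log2 signal of 12 genes on each control, IM and RU PeF array, with the group mean (line) and SD (bar); the diamond is IM PeF 2. In the panel of Cxcr4 the RU PeF points sit between 4.69 and 4.85, below every other array, and in that of Akr1c3 they sit between 12.26 and 12.33, above the IM PeF arrays.

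Targets of the glucocorticoid receptor that passed were lower in RU PeF. Of 19 tested, 8 were lower (42.1%, against 3.85% of all genes) and 0 higher, and the median was -0.88 against 0. The differences ran from -2.41 to 0.51, and 5 were positive. With single arrays left out the count ran from 4 (without RU PeF 2) to 9 (without IM PeF 1), and it was 5 without IM PeF 2. Median scaling gave 4 and the deposited signals gave 0.

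Fkbp5, a co-chaperone that dampens the glucocorticoid receptor, measured 10.28, 11.06 and 10.86 in IM PeF 1 to 3 and 9.51, 9.33 and 9.32 in RU PeF 1 to 3. The groups did not overlap, and IM PeF 1 lay nearest to RU PeF. The difference was -1.35 ± 0.21 (2.55-fold lower, adjusted p = 0.000535), and its second probe set passed at -0.78. Sgk1, a kinase that regulates ion transport, measured 10.08, 10.33 and 10.39 in IM PeF 1 to 3 and 9.44, 9.24 and 9.16 in RU PeF 1 to 3, a difference of -0.99 ± 0.15 (adjusted p = 0.00068). Klf9, a zinc finger transcription factor, measured 11, 11.04 and 10.92 in IM PeF 1 to 3 and 10.21, 9.76 and 9.71 in RU PeF 1 to 3, a difference of -1.09 ± 0.18 (adjusted p = 0.00111). In both genes the IM PeF arrays lay close together, and no array overlapped.

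Per1, a repressor of the circadian clock, measured 9.12, 9.09 and 9.03 in IM PeF 1 to 3 and 8.25, 8.17 and 8.0 in RU PeF 1 to 3, a difference of -0.94 ± 0.2 (adjusted p = 0.00741). Tsc22d3, the leucine zipper protein GILZ, measured 8.58, 10.81 and 9.61 in IM PeF 1 to 3 and 7.44, 6.79 and 7.55 in RU PeF 1 to 3, a difference of -2.41 ± 0.5 (adjusted p = 0.00763). IM PeF 2 was its highest array and IM PeF 1 its lowest of the group, and the call was lost without IM PeF 2 or RU PeF 2 (differences of -2.95 to -1.84 and adjusted p of at most 0.0572 over the 6 left-out fits). Rasd1, a Ras-like GTPase, differed by -1.37 ± 0.31, adjusted p = 0.0125, and Ddit4, an inhibitor of the growth kinase mTOR, by -1.46 ± 0.4, adjusted p = 0.04. Rasd1 and Ddit4 lost the call without IM PeF 2 (adjusted p = 0.081 and 0.189). Nfkbia, the eighth, is described with its pathway. Among those that did not pass were Cebpd (-0.88 ± 0.27, adjusted p = 0.0704), Pdk4 (-1.75 ± 0.59, adjusted p = 0.107) and Dusp1 (-0.56 ± 0.28, adjusted p = 0.325).

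Metallothioneins are small proteins that bind zinc and copper and that glucocorticoids and metals induce, and Mt1 and Mt2A were lower in RU PeF. Mt1 measured 6.11, 6.57 and 6.13 in IM PeF 1 to 3 and 4.88, 4.32 and 3.69 in RU PeF 1 to 3, with untreated follicles at 6.81, 6.79 and 7.04. Every RU PeF array was below every IM PeF array, which in turn were below the untreated ones. The difference was -1.97 ± 0.29 (3.92-fold lower, adjusted p = 0.000381). Mt2A measured 9.48, 10.56 and 9.43 in IM PeF 1 to 3 and 8.02, 7.91 and 7.42 in RU PeF 1 to 3, a difference of -2.04 ± 0.31 (4.11-fold lower, adjusted p = 0.000535), again without overlap. Mt3 differed by -2.0 ± 0.61, adjusted p = 0.069, and Slc30a1, a zinc exporter, by 1.3 ± 0.49, adjusted p = 0.155. Of 8 members of the list tested, 2 were lower (25%, against 3.85% of all genes) and 0 higher, with a median of -0.41.

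Promoters of Mt1 and Mt2A are shown because both genes moved together. They are the 250 bases before the RefSeq start of each gene on GRCr8, at chr19:10832976-10833225 and chr19:10838709-10838958, both on the minus strand and written 5′ to 3′ in the gene's direction. Capitals mark TGCGCNC, a single form of the core of the metal response element, searched on both strands. Other forms of the core were not searched and are not marked.
Mt1: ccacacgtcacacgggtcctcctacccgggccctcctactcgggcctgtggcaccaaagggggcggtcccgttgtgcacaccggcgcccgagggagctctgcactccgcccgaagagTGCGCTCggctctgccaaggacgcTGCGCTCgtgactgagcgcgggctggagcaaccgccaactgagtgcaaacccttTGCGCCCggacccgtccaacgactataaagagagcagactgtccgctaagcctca
Mt2A: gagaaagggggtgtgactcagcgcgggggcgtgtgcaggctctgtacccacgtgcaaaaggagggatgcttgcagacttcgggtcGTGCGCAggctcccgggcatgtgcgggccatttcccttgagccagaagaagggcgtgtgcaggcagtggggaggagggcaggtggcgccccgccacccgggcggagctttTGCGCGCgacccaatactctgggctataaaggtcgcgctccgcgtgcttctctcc

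The Mt1 promoter held 3 matches of this form, 133, 109 and 55 bases before the start. The Mt2A promoter held 2, 165 (on the other strand) and 55 bases before the start. The motif stood in 11.8% of 33469 promoters of that length, and in 6 of the 7 members of the list that had a promoter sequence. These are matches of letters, not shown to be sites. The motif TGTTCT, 1 arm of the steroid receptor element, searched the same way, is in 17.5% of all promoters and in none of the 8 called glucocorticoid receptor targets, which says only that the letters are not in this window.

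Of the feedback genes of nuclear factor kappa B, the inflammatory transcription factor, 3 of 14 were lower in RU PeF (21.4%, against 3.85% of all genes) and 0 higher. The median was -0.03. Tnfaip3, the ubiquitin-editing protein A20 that shuts the pathway off, measured 9.84, 10.15 and 9.83 in IM PeF 1 to 3 and 7.3, 7.02 and 7.24 in RU PeF 1 to 3, beside 10.12, 9.67 and 9.11 in untreated follicles. Every RU PeF array was more than 2 log2 units below every IM PeF array. The difference was -2.75 ± 0.22 (6.74-fold lower, adjusted p = 4.12e-07).

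Nfkbia, the inhibitor that holds the factor in the cytoplasm, measured 8.87, 9.06 and 9.12 in IM PeF 1 to 3 and 8.08, 7.87 and 8.02 in RU PeF 1 to 3, a difference of -1.03 ± 0.22 (adjusted p = 0.0104). Its groups did not overlap, and the call was lost without RU PeF 2 (differences of -1.1 to -0.96 and adjusted p of at most 0.0565 over the 6 left-out fits). Tnip1, a partner of A20, differed by -0.68 ± 0.18, adjusted p = 0.0318 and lost the call without IM PeF 2, RU PeF 1, RU PeF 2 or RU PeF 3 (differences of -0.8 to -0.48 and adjusted p of at most 0.192 over the 6 left-out fits). The subunits Nfkb1 (0.41 ± 0.22) and Rela (0.06 ± 0.12) and the target Icam1 (-0.09 ± 0.35) did not pass. The list count was 1 without RU PeF 2 and 1 with median scaling.

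The promoters of Tnfaip3 and Nfkbia are shown as those of the members with the largest and the best-known feedback role. They are the 250 bases before the RefSeq start on GRCr8, at chr1:15543980-15544229 and chr6:78597073-78597322, both on the minus strand and written in the gene's direction. Capitals mark GGANTTTCC, a single form of the site of the factor, on either strand. Other forms of the site were not searched and are not marked.
Tnfaip3: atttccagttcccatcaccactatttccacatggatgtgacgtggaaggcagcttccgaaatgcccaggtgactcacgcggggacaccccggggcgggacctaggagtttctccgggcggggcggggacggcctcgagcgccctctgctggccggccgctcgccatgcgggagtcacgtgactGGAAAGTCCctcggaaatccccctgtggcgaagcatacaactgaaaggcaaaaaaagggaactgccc
Nfkbia: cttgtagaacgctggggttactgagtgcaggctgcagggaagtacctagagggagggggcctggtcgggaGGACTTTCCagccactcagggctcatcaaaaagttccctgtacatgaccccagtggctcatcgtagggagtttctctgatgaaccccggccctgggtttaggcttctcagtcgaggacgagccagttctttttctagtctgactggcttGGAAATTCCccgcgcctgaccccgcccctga

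Tnfaip3 held 1 match of this form 67 bases before the start and Nfkbia held 2, 180 and 31 bases before it. The motif stood in 1.08% of the 33469 promoters and in 5 of the 11 members of the list with a promoter sequence, 2 of them called and 3 not.

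The cholesterol synthesis genes that passed were higher in RU PeF. All 18 members tested had positive differences, with a median of 0.60 against 0 over all genes, and 9 passed (50%, against 2.17% of all genes higher). The differences were small, and the number of calls changed with single arrays. With 1 array left out the count was 1 without IM PeF 2, without RU PeF 2 or without RU PeF 3, 2 without RU PeF 1, 5 without IM PeF 3 and 9 without IM PeF 1. Median scaling gave 6 and the deposited signals gave 0. The list median was 0.53 without IM PeF 2, 0.79 with median scaling and 0.91 on the deposited signals.

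Dhcr7, which makes the last step to cholesterol, measured 8.42, 9.52 and 9.19 in IM PeF 1 to 3 and 10.25, 10.35 and 10.45 in RU PeF 1 to 3. The RU PeF arrays lay close together and above all IM PeF arrays, of which IM PeF 1 was lowest. The difference was 1.3 ± 0.27 (adjusted p = 0.00696), and 1.54 without IM PeF 2 (adjusted p = 0.00455). Idi1, an isomerase of the early pathway, measured 12.59, 11.63 and 12.5 in IM PeF 1 to 3 and 13.14, 13.27 and 13.31 in RU PeF 1 to 3, a difference of 1.0 ± 0.26 (adjusted p = 0.0282). Its IM PeF 2 value was well below the other 5, and the call was lost without IM PeF 2, RU PeF 1, RU PeF 2 or RU PeF 3 (differences of 0.69 to 1.18 and adjusted p of at most 0.19 over the 6 left-out fits).

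Fdft1, which makes squalene, differed by 0.95 ± 0.22, adjusted p = 0.0165, and its second probe set by 0.77 (adjusted p = 0.0326). Sqle (0.86 ± 0.22), Cyp51 (0.87 ± 0.23), Hsd17b7 (0.97 ± 0.27), Nsdhl (0.74 ± 0.19) and Fdps (0.58 ± 0.14), all enzymes of the pathway, also passed. Insig1, a sterol sensor whose gene the pathway's own transcription factor drives, measured 10.33, 8.97 and 9.79 in IM PeF 1 to 3 and 10.73, 10.73 and 10.73 in RU PeF 1 to 3, a difference of 1.03 ± 0.29, adjusted p = 0.0493. Srebf2, that transcription factor, differed by 0.14 ± 0.13, adjusted p = 0.685. Of 12 genes of cholesterol uptake, storage and efflux, limma called 0 (6 at an unadjusted p under 0.05), with a median of 0.08; the largest were Abca1, an exporter, at -1.63 ± 0.59, adjusted p = 0.14 and Stard4, a carrier, at 0.88 ± 0.27, adjusted p = 0.0758.

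Steroidogenesis was split. Of 12 genes tested, 3 were higher (25%, against 2.17% of all genes) and 1 lower (8.33%, against 3.85%), with a median of 0.11. Star, which carries cholesterol into mitochondria, measured 12.31, 12.14 and 12.04 in IM PeF 1 to 3 and 12.79, 13.18 and 12.99 in RU PeF 1 to 3. All RU PeF arrays exceeded all IM PeF arrays, by 0.82 ± 0.14 (adjusted p = 0.00161), and its second probe set gave 1.43. Akr1c3, also known as Akr1c18, is the enzyme that inactivates progesterone in the rat ovary.

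Akr1c3 measured 10.7, 9.16 and 10.42 in IM PeF 1 to 3 and 12.29, 12.26 and 12.33 in RU PeF 1 to 3. The RU PeF arrays were nearly equal, and IM PeF 2 was the lowest IM PeF array. The difference was 2.2 ± 0.34 (4.6-fold higher, adjusted p = 0.000568), and 1.73 without IM PeF 2 (adjusted p = 0.00269). Hsd17b1, which activates estrogen, measured 4.4, 4.62 and 5.74 in IM PeF 1 to 3 and 8.18, 6.87 and 5.66 in RU PeF 1 to 3, so that RU PeF 3 lay below IM PeF 3. Its difference of 1.98 ± 0.51 passed (adjusted p = 0.0273), and was lost without IM PeF 1, IM PeF 2, RU PeF 1 or RU PeF 2 (differences of 1.34 to 2.6 and adjusted p of at most 0.153 over the 6 left-out fits).

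Nr5a2, a nuclear receptor that drives steroidogenic genes in granulosa cells, measured 9.27, 11.16 and 9.82 in IM PeF 1 to 3 and 8.21, 6.96 and 7.51 in RU PeF 1 to 3. The groups did not overlap, with IM PeF 2 highest. The difference was -2.53 ± 0.34 (5.76-fold lower, adjusted p = 0.000206), and its other probe sets gave -1.65, which passed, and -1.48, which did not. Cyp11a1, which starts steroid synthesis, differed by -0.25 ± 0.09, adjusted p = 0.151, Hsd3b1, which makes progesterone, by -0.03 ± 0.09, adjusted p = 0.926, Cyp17a1, the androgen-making enzyme of theca, by -0.04 ± 0.59, adjusted p = 0.986, and Cyp19a1, aromatase, by 1.1 ± 0.49, adjusted p = 0.255.

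In the inhibin, activin and follistatin system 1 of 12 genes passed (8.33%, against 2.17% of all genes higher), with a median of 0.43. Inhbb, the beta B subunit of inhibin and activin, measured 6.8, 6.86 and 7.18 in IM PeF 1 to 3 and 8.91, 9.25 and 8.46 in RU PeF 1 to 3, and the mean of untreated follicles was 7.03. The IM PeF arrays lay close together and more than 1 log2 unit below every RU PeF array. The difference was 1.92 ± 0.16 (3.8-fold higher, adjusted p = 1.16e-06), and 1.88 without IM PeF 2. Inhba, the beta A subunit, gave 2.61 ± 0.62 on 1 probe set (adjusted p = 0.0168; 0.121 without IM PeF 2) and 2.20 ± 0.71 on the brighter one (adjusted p = 0.0903). Inha, the alpha subunit, differed by 0.31 ± 0.19, adjusted p = 0.443 and Fst, the activin-binding follistatin, by -0.2 ± 0.28, adjusted p = 0.798.

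Among gonadotropin receptors and regulators induced by luteinizing hormone, the median was 0.54. Of 17 tested, 2 were higher and 2 lower (11.8% each, against 2.17% and 3.85% of all genes). The count ran from 1 without RU PeF 3 to 5 without IM PeF 1. Prlr, the prolactin receptor, differed by -0.88 ± 0.15 (adjusted p = 0.00162), and its other probe sets gave -0.22 and -0.94 and did not pass. Gata4, a transcription factor of granulosa and theca, differed by 0.82 ± 0.22, adjusted p = 0.0318, and its second probe set, at 0.14, did not pass. Rgs2, a brake on G protein signalling, differed by 1.19 ± 0.32 on its brighter probe set (adjusted p = 0.0368). Gata4 lost the call without IM PeF 1, IM PeF 3, RU PeF 2 or RU PeF 3 (differences of 0.66 to 0.97 and adjusted p of at most 0.169 over the 6 left-out fits). Rgs2 lost it without any array but IM PeF 1, with differences of 0.95 to 1.40 and adjusted p of at most 0.214.

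The epidermal growth factor ligands that relay the surge had large but scattered differences. Areg measured 10.99, 6.77 and 9.19 in IM PeF 1 to 3 and 11.14, 10.67 and 10.54 in RU PeF 1 to 3, a difference of 1.8 ± 0.81, adjusted p = 0.26, and 0.69 without IM PeF 2. Ereg measured 10.78, 6.49 and 9.24 in IM PeF 1 to 3 and 11.55, 11.18 and 10.8 in RU PeF 1 to 3, a difference of 2.34 ± 0.91, adjusted p = 0.172, and 1.17 without IM PeF 2. In both IM PeF 2 was far below the other arrays of the 2 drugs. Untreated follicles also spread, at 8.03, 9.31 and 11.87 for Areg and 7.71, 9.51 and 12.33 for Ereg in control PeF 1 to 3. Lhcgr, the receptor of luteinizing hormone, differed by 1.79 ± 0.64, adjusted p = 0.134, and its second probe set by 0.22. These 3 and Tnfaip6 passed without IM PeF 1, at adjusted p of 0.0307 to 0.0364.

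Of 7 genes of the cumulus and hyaluronan matrix, limma called 0 (1 at an unadjusted p under 0.05), with a median of -0.13. Has2, which makes hyaluronan, differed by 0.69 ± 0.5, adjusted p = 0.541, Tnfaip6, which crosslinks it, by 1.41 ± 0.53, adjusted p = 0.152, and Vcan, its proteoglycan partner and the substrate of Adamts1, by 0.18 ± 0.16, adjusted p = 0.642.

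Matrix proteases and their inhibitors moved both ways, with 2 of 18 higher (11.1%), 3 lower (16.7%) and a median of -0.03. Over all genes 2.17% were higher and 3.85% lower. Adamts9, a protease related to Adamts1, measured 10.12, 11.51 and 10.99 in IM PeF 1 to 3 and 8.63, 7.92 and 7.8 in RU PeF 1 to 3. No array overlapped, and IM PeF 2 was highest. The difference was -2.76 ± 0.38 (6.76-fold lower, adjusted p = 0.000216). Timp2 (-0.79 ± 0.2), an inhibitor of matrix proteases, was lower, and Plaur (1.43 ± 0.4), the urokinase receptor, and Timp1 (0.64 ± 0.18) were higher. Their adjusted p was 0.0283, 0.0472 and 0.0495, and each lost the call in 5 of the 6 left-out fits, at adjusted p of at most 0.126, 0.254 and 0.278. Of 7 genes of coagulation control, F3 was lower and Anxa5, which shields membranes from clotting, was higher (0.99 ± 0.24, adjusted p = 0.0203), and the median was 0.17. Each was 14.3% of the list, against 3.85% of all genes lower and 2.17% higher. Anxa5 lost the call without IM PeF 2, IM PeF 3, RU PeF 1, RU PeF 2 or RU PeF 3 (differences of 0.65 to 1.32 and adjusted p of at most 0.125 over the 6 left-out fits).

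The collagens and other structural matrix genes that passed were lower in RU PeF. Of 31 tested, 8 were lower (25.8%, against 3.85% of all genes) and 0 higher, 24 had negative differences and the median was -0.36. Col1a1, a chain of the main fibrillar collagen, measured 8.0, 8.21 and 8.05 in IM PeF 1 to 3 and 7.34, 7.02 and 7.01 in RU PeF 1 to 3. The groups did not overlap. The difference was -0.96 ± 0.16 (adjusted p = 0.00106), and its second probe set passed at -0.71.

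Lum, a proteoglycan that spaces collagen fibrils, differed by -1.0 ± 0.19, adjusted p = 0.00347, and Col3a1 by -0.72 ± 0.15, adjusted p = 0.00739. Col12a1 (-1.2 ± 0.27), Fn1 (-0.81 ± 0.19), Col1a2 (-0.83 ± 0.2), Fbn1 (-0.81 ± 0.21) and Col5a2 (-0.65 ± 0.17) also passed. The basement membrane chains Col4a1 (-0.24 ± 0.17), Col4a2 (-0.04 ± 0.19) and Lamc1 (-0.11 ± 0.13) did not. The list count was 3 without IM PeF 2, up to 7 without the other arrays, 2 under median scaling and 0 on the deposited signals. The summed signal of smooth muscle markers moved with this group, from 1420 to 1560 in IM PeF to 1050 to 1130 in RU PeF, and its part in the result was not tested.

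**Figure D4:**
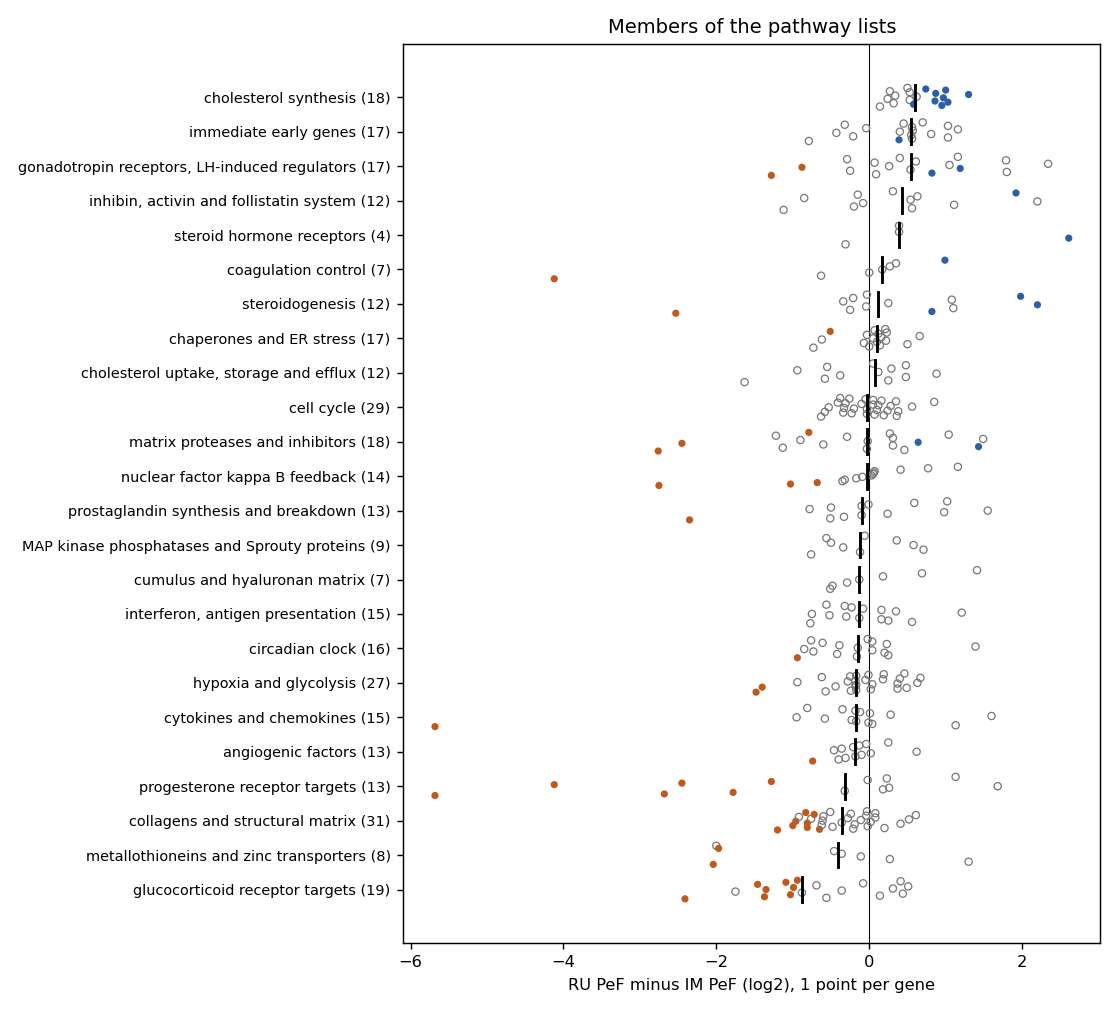
Difference between the drugs (RU PeF minus IM PeF, log2) of every tested member of 24 pathway lists, 1 point per gene, filled where limma's adjusted p was under 0.05, with a tick at each list's median. Points of cholesterol synthesis all lie to the right of 0, and the filled points of the targets of the glucocorticoid and progesterone receptors all lie to its left.

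Each remaining list held at most 2 calls, and their shares are read against 3.85% of all genes lower and 2.17% higher. Of 27 hypoxia and glycolysis genes 2 were lower (7.41%), with a median of -0.17. Pfkfb3, which makes an activator of glycolysis, measured 9.31, 9.34 and 9.39 in IM PeF 1 to 3 and 8.12, 8.03 and 7.47 in RU PeF 1 to 3, a difference of -1.48 ± 0.19 (2.78-fold lower, adjusted p = 0.000119). Its IM PeF arrays were nearly equal, and no array overlapped. Bnip3, a mitochondrial protein of the hypoxia response, differed by -1.4 ± 0.34, adjusted p = 0.0195 and lost the call without IM PeF 2, IM PeF 3, RU PeF 2 or RU PeF 3 (differences of -1.8 to -0.96 and adjusted p of at most 0.128 over the 6 left-out fits).

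Of 13 angiogenic factors Nrp1, a co-receptor of Vegf, was lower (-0.74 ± 0.2, adjusted p = 0.0326), a call lost without any array but IM PeF 1 at differences of -0.91 to -0.63 and adjusted p of at most 0.143, and its second probe set gave -0.07. Vegfa differed by -0.31 ± 0.19, adjusted p = 0.457. The median was -0.18. Of 15 cytokines and chemokines Cxcr4 alone passed (median -0.17), and Il6, an inflammatory cytokine, differed by 1.13 ± 0.83, adjusted p = 0.55. Of 17 immediate early genes Jund was higher (0.39 ± 0.09, adjusted p = 0.0116), and the median was 0.55. It lost the call without IM PeF 2 or RU PeF 3 (differences of 0.32 to 0.45 and adjusted p of at most 0.071 over the 6 left-out fits). Of 16 clock genes Per1 alone passed, with a median of -0.15.

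Of 17 chaperones and stress genes of the endoplasmic reticulum, Dnajb1 was lower (-0.51 ± 0.14, adjusted p = 0.0363), a call lost without any 1 of the 6 arrays, and the median was 0.10. Limma called 0 of 15 interferon response genes (median -0.13), 0 of 9 MAP kinase phosphatases and Sprouty proteins (-0.12) and 0 of 29 cell cycle genes (-0.03), with 1, 1 and 3 at an unadjusted p under 0.05. Over these 3 lists the differences ran from -0.77 to 1.21. Over all lists 405 genes were tested and 59 passed, 21 higher and 38 lower, beside 2.17% and 3.85% of all genes. Without IM PeF 2 the count was 29, without RU PeF 2 32 and without RU PeF 3 35.

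Markers of the cell types in the sections were set beside these results. Their counts of calls are read against 2.17% of all genes higher and 3.85% lower. Granulosa markers summed to signals of 22700, 17700 and 18900 in IM PeF and 29000, 27300 and 20200 in RU PeF, and theca markers to 2560, 2320 and 2240 and to 2290, 2560 and 1610. Both pairs overlapped, and no tested marker of any list was at background on all 6 arrays. Of 11 granulosa markers Nr5a2 was lower and Hsd17b1 higher (median 0.13), and of 8 theca markers Nr2f2, a nuclear receptor, was lower (-0.81 ± 0.13, adjusted p = 0.000768; second probe set -0.06; list median -0.10).

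Smooth muscle and pericyte markers were lower in sum, at 1560, 1460 and 1420 in IM PeF and 1130, 1070 and 1050 in RU PeF, without overlap. Untreated follicles stood at 1850, 1720 and 2280. Of 15 markers 14 had negative differences, with a median of -0.38, and 2 passed. Tagln, an actin-binding protein of smooth muscle, measured 7.32, 7.2 and 6.59 in IM PeF 1 to 3 and 5.77, 5.6 and 5.02 in RU PeF 1 to 3, a difference of -1.57 ± 0.24 (adjusted p = 0.000546). Mylk, which phosphorylates myosin, differed by -0.88 ± 0.21, adjusted p = 0.019 and lost the call without IM PeF 2, RU PeF 2 or RU PeF 3 (differences of -1.07 to -0.77 and adjusted p of at most 0.0949 over the 6 left-out fits), while Acta2 (-0.3 ± 0.3) and Des (-0.08 ± 0.22) did not pass.

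Endothelial markers summed to 1300, 1170 and 1340 in IM PeF and 1070, 1240 and 1020 in RU PeF, which overlapped. Limma called 0 of 13 (1 at an unadjusted p under 0.05), with 12 negative differences and a median of -0.19. Leukocyte markers summed to 594, 475 and 688 and to 591, 676 and 529, with 1 of 12 called and a median of -0.46. That gene was Cd14, a receptor for bacterial lipopolysaccharide, which measured 6.27, 6.26 and 6.55 in IM PeF 1 to 3 and 7.57, 8.37 and 7.8 in RU PeF 1 to 3, a difference of 1.55 ± 0.33 (adjusted p = 0.0088), and lost the call without RU PeF 2 (differences of 1.32 to 1.72 and adjusted p of at most 0.0666 over the 6 left-out fits). Oocyte markers (3 tested), erythrocyte markers (2) and markers of the surface epithelium (4) held 0 calls in limma (0, 0 and 2 at an unadjusted p under 0.05), with medians of 0.52, -0.08 and 0.32.

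The difference between the drugs was also measured 12 hours later, in unruptured follicles at 10:00 of estrus. There limma called 1261 of 18155 probe sets (6.95%), 634 higher and 627 lower in RU UF. Of the 949 calls at 22:00, 193 passed at 10:00 in the same direction and 37 in the opposite one. The change of the drug difference between the times passed for 476 probe sets (2.62%), 289 of them positive and 187 negative. Median scaling gave 220, 91 positive and 129 negative, and limma on the deposited signals gave 0 (326 at an unadjusted p under 0.05). Of the calls at 22:00, 239 changed in this test and 218 of those were smaller in size at 10:00. These were picked for their difference at 22:00, which the change subtracts, so the choice itself favours smaller differences at 10:00. Time, hours since dosing and the fate of the follicle differ together here.

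Cxcr4 was among those that shrank, from -5.68 at 22:00 to -1.78 ± 0.35 at 10:00, a change of 3.91 ± 0.5 (adjusted p = 0.000346). Susd3 and Aard, among the largest differences at 22:00, stood at -1.24 ± 0.66 and -0.09 ± 0.7 at 10:00, changes of 4.18 ± 0.93 and 4.17 ± 0.99 (adjusted p = 0.0195 and 0.0305). Wipf3, an actin regulator, went from -3.33 ± 0.38 to 0.8 ± 0.38 (adjusted p of the change = 0.000374). Fkbp5 went from -1.35 to 0.19 ± 0.21, a change that passed (adjusted p = 0.0066). In this test 4 of the 8 called glucocorticoid receptor targets changed, beside 239 of all 949 probe sets called at 22:00. Mt1 (0.25 ± 0.29 at 10:00) and Mt2A (-0.35 ± 0.31) changed too, by 2.22 ± 0.41 and 1.69 ± 0.44. G0s2 differed by 3.3 ± 0.45 at 10:00, a change of 0.11 ± 0.63 that did not pass. Xlr5c and Lyve1 were also low in RU UF, with fitted differences of -6.32 ± 0.53 and -3.45 ± 0.48, but Xlr5c was above background on 1 of 3 RU UF arrays and Lyve1 on none, so no change of size can be read for them.

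Other differences had opposite signs at the 2 times, and among them those of Per1, Prlr and Timp1 passed at both. Timp1 went from 0.64 ± 0.18 to -0.97 ± 0.18 (adjusted p = 0.00329 at 10:00; adjusted p of the change = 0.00216). Per1 was lower in RU PeF and higher in RU UF (1.09 ± 0.2, adjusted p = 0.00234), a change of 2.03 ± 0.28 (adjusted p = 0.000529), and Prlr did the same (0.94 ± 0.15 at 10:00, adjusted p = 0.000967; adjusted p of the change = 0.000239). Inhbb went from 1.92 to -0.35 ± 0.16 (adjusted p of the change = 6.39e-05). Edn2 went from 1.68 ± 0.49 to -2.1 ± 0.49 (adjusted p of the change = 0.00507). Ptges, at background in RU PeF and so known there only by a bound, differed by 0.8 ± 0.44 at 10:00. Dhh, a hedgehog ligand of granulosa cells, went from -0.98 ± 0.41 to 3.04 ± 0.41. Nt5e, which makes adenosine, went from 0.55 ± 0.41 to -3.31 ± 0.41, Acta1, skeletal actin, which was above background on 1 of 3 IM PeF and 1 of 3 RU UF arrays, from 0.66 ± 0.58 to -3.05 ± 0.58, the hormone Stc1, above background on 1 of 3 RU UF arrays, from 1.17 ± 0.46 to -2.47 ± 0.46 and the membrane protein Tmem139 from 1.98 ± 0.49 to -1.53 ± 0.49.

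Star differed more at 10:00, by 1.7 ± 0.14 (adjusted p of the change = 0.0233). Cyp19a1 reached 3.76 ± 0.49 at 10:00 (adjusted p = 0.000172), and its change of 2.66 ± 0.7 just missed the threshold (adjusted p = 0.05). Of the 9 called genes of cholesterol synthesis 6 passed at 10:00 in the same direction and 0 of the 9 changed in the test between the times. Over all 949 probe sets called at 22:00, 193 passed in the same direction and 239 changed.

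**Figure D5:**
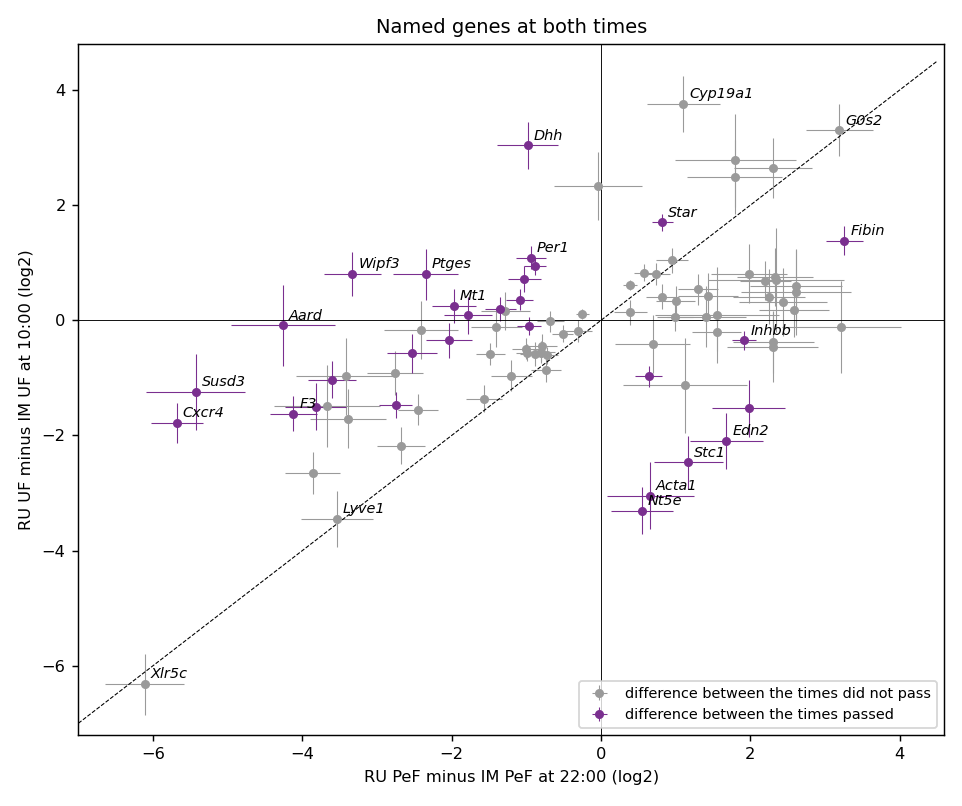
Difference between the drugs (RU minus IM, log2, with SE bars) of the named genes at 10:00 of estrus against that at 22:00 of proestrus; purple points passed the test of the change between the times, and the diagonal marks equal differences. Cxcr4 lies at -5.68 on the horizontal axis and at -1.78 on the vertical one, while Xlr5c lies near the diagonal, with 1 of 3 RU UF arrays above background.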

How the data were processed

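Total RNA of 18 samples in 6 groups of 3 was hybridized to Affymetrix rat arrays, 1 per sample, after biotin labelling by in vitro transcription, per the labels' protocols. The deposited values are probe set intensity on a linear scale, none under 1. The submitters' processing notes list MAS5. Its version and scaling are not stated there. The array medians differed, so the deposited signals were not on a common level. The number of arrays limits the precision.

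Control probe sets (57 of 31099) were left out. Arrays were quantile-normalized and log2(signal + 2.8) was taken, where 2.8 is the 20th percentile of all values, so fold changes of dim genes are understated. Probe sets above their array's median on at least 3 arrays were tested. Background was the brightest of 27 unspiked control probe sets on each array. Limma 3.58.1 in R 4.3.3 was fitted with 1 mean per group over all 18 arrays (12 residual degrees of freedom), with a variance trend and Benjamini-Hochberg adjustment at 0.05. An exact permutation test of 3 against 3 cannot go below 0.1 and was not used. The code was tested on simulated data.

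Symbols came from the platform annotation: 20826 probe sets had 1 symbol, 436 several and 9780 none, and unnamed ones stayed in the counts. The probe set of the highest mean stood for its gene. Named genes were the 12 largest differences in each direction without overlap between groups, from each of 33 lists up to 5 called members of lowest adjusted p (25 pathways, 8 cell types), the 5 largest changes between the times in each direction, and 21 genes always given. The members and lists were chosen with earlier results of these data known. Alternatives were median scaling, the signals as deposited, other pseudocounts and filters, array weights, no variance trend, a replicate block, the compared groups alone, without the 3 dimmest arrays and each array left out. Promoters came from RefSeq (GRCr8), and figures were drawn with matplotlib 3.10.9.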

Additional observations from a re-analysis of the deposited data

Results flagged for a closer look

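The difference between RU486 and indomethacin at 10:00 of estrus was tested against that at 22:00 of proestrus, and 476 probe sets passed in limma. All calls of a change between the times share the arrays of 22:00. Among genes with 1 symbol and no overlap between the drugs at 1 of the times, the largest positive changes were Susd3 at 4.18, Aard at 4.17, Wipf3 at 4.12, Dhh at 4.02 and Cxcr4 at 3.91 on the log2 scale. The largest negative changes were Nt5e at -3.86, Edn2 at -3.79, Acta1 at -3.72, Stc1 at -3.64 and Tmem139 at -3.51. No array of a group of 3 was tested as an outlier.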

How the results depend on the processing

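Of the 949 probe sets called between the drugs at 22:00, none changed direction in any alternative run. The count was 530 with median scaling, 41 with the signals as deposited and 3861 with arrays weighted by quality (1893 higher, 1968 lower), which gave IM PeF 2 a weight of 0.288 against 7.17 for IM PeF 3. With single arrays left out it ran from 486 to 1166. The 476 calls of a change between the times became 220 with median scaling, 0 with the signals as deposited (326 at an unadjusted p under 0.05), 2067 with array weights and 726 without the 3 dimmest arrays (control PeF 3, IM UF 2 and IM PeF 2). Single arrays gave 279 (without RU PeF 2) to 547, and 282 without RU UF 2. The 59 called members of the lists became 36 with median scaling, 3 with the signals as deposited, 157 with array weights and 37 without the variance trend, and 29 to 66 with single arrays left out. The causes were not tested. All other alternatives gave counts within 1.5 times of these.

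Replicate numbers did not pair the samples: same-numbered IM PeF and RU PeF samples correlated at -0.00436, -0.00959 and 0.0435 in their deviations from the group means. With a replicate block the counts were 849, 391 and 52, and 825 of the 949 calls remained. Median scaling moved the median difference of all probe sets from 0.01 to 0.08, and the deposited signals moved it to 0.19. Of 73 called values of named genes, 32 passed in every alternative but the deposited signals, and 16 in all.

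Precision is limited by 3 arrays per group and by signals near background, where a fold is given as a bound.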

Other observations

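Several genes outside the lists were singled out after their values were seen. Both tested subunits of the nitric oxide receptor guanylyl cyclase were lower in RU486 follicles at 22:00, Gucy1a1 by -1.52 ± 0.25, adjusted p = 0.00106 in limma and Gucy1b1 by -2.09 ± 0.4, adjusted p = 0.00378. Of the 2 probe sets of Gucy1a1, 1 passed. Adcyap1r1, the receptor of the peptide PACAP, measured 6.72, 6.43 and 6.54 in IM PeF 1 to 3 and 4.22, 3.93 and 3.7 in RU PeF 1 to 3, a difference of -2.61 ± 0.41, adjusted p = 0.000658, while its ligand Adcyap1 differed by 0.23 ± 0.46, adjusted p = 0.87. The growth factor receptors Egfr (-1.72 ± 0.19, adjusted p = 3.09e-05; 2 of 3 probe sets passed) and Pdgfra (-1.46 ± 0.23, adjusted p = 0.00066) were lower, while Pdgfrb differed by -0.27 ± 0.43, adjusted p = 0.827. Gpc3, a cell surface proteoglycan, differed by -2.18 ± 0.2, adjusted p = 3.02e-06 and the growth factor Tgfb2 by -2.56 ± 0.55, adjusted p = 0.00907. Tgfb2 lost the call without IM PeF 2 (-2.44, adjusted p = 0.0501).

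Genes of cell junctions among these were Dsp, desmoplakin, at -2.49 ± 0.45, adjusted p = 0.00218 and Cldn1, a tight junction protein, at -2.24 ± 0.24, adjusted p = 1.62e-05, all 3 of whose probe sets passed. Klf15, a zinc finger factor, differed by -1.81 ± 0.22, adjusted p = 6.18e-05, Glul, glutamine synthetase, by -1.77 ± 0.38, adjusted p = 0.00841 and Deptor, an inhibitor of mTOR, by -3.04 ± 0.26, adjusted p = 1.16e-06. Of the 3 probe sets of Glul, 2 passed. In the other direction, Mme, the peptidase neprilysin, was higher by 1.91 ± 0.25, adjusted p = 0.000158, Plin2, a coat protein of lipid droplets, by 1.6 ± 0.29, adjusted p = 0.00234 and Penk, the enkephalin precursor, by 1.65 ± 0.37, adjusted p = 0.0129. Of the 2 probe sets of Plin2, 1 passed. Penk lost the call without IM PeF 2 (1.3, adjusted p = 0.0925).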
